A study of Mus musculus with 10 samples.

Results

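Nuclear-encoded genes of oxidative phosphorylation were examined in RNA-seq data from mpkCCD cells, an immortalized mouse cell line of the cortical collecting duct. Members were taken by symbol: those beginning with Ndufa, Ndufb, Ndufc, Ndufs, Ndufv, Sdha to Sdhd, Uqcr, Cox4i, Cox5, Cox6, Cox7, Cox8 or Atp5, without symbols marked as pseudogenes or opposite-strand transcripts, and with a mean of at least 1 TPM over the samples, TPM being the share of a gene among all transcripts after scaling by length. Of 55414 genes, 118 had such a symbol, 14 were left out as pseudogenes or opposite-strand transcripts and 12 for a lower mean, which left 92 members. Complex I held 45 of them, complex II 8, complex III 8, complex IV 14 and complex V 17.

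The study asked what the loss of calcium/calmodulin-dependent protein kinase 2δ (Camk2d) does in collecting duct cells, and measured 10 samples, 5 intact and 5 with a Camk2d knockout (KO) made by CRISPR-Cas9. The intact samples were the parental wild-type line, 2 samples of intact clone 1 and 2 samples of intact clone 2, so they stand for 3 cell lines. The KO samples were 5 single-cell clones, and the study's mutation table gives a guide in exon 8 for KO 1 and KO 2 and a guide in exon 9 for KO 3, KO 4 and KO 5. The labels name no guide, so each comparison of guides rests on the clone numbers being the same in that table and in the labels, which could not be checked here. Cells of both genotypes grew on permeable supports for 7 days with dDAVP, a vasopressin analog, so vasopressin signaling was switched on in all samples and no unstimulated state was measured. Each KO clone is 1 sample, and the labels do not say whether the paired samples of an intact clone were separate cultures, so p-values measure the spread between these samples only.

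Oxidative phosphorylation makes ATP at the inner mitochondrial membrane. Complex I takes electrons from NADH and complex II from succinate, complex III passes them from ubiquinol to cytochrome c, and complex IV hands them to oxygen. Complexes I, III and IV pump protons, and complex V, the ATP synthase, uses the return flow to make ATP. Most subunits are encoded in the nucleus, while a small set of core subunits of complexes I, III, IV and V is encoded by mitochondrial DNA. Core subunits carry out catalysis or proton movement, accessory subunits surround them and are often small, and assembly factors help to build the complexes without remaining in them. By this division the members were 20 core subunits, 59 accessory subunits and 13 assembly or associated factors. In the kidney, mitochondria supply the ATP that sodium transport consumes, and collecting duct principal cells hold fewer of them than proximal tubule cells do.

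The samples matched their labels. Camk2d was measured at 123 to 141 TPM in the intact samples and at 19.8 to 29.8 TPM in the KO samples. Of 10 principal cell markers, 8 had a mean of at least 1 TPM. The summed level of all 10 was 4984 to 6849 TPM in intact and 2678 to 5174 TPM in KO samples. Aqp2, the vasopressin-regulated water channel, was the largest of them, at 4318 ± 696 TPM in intact and 2485 ± 1024 TPM in KO samples (SD, n = 5 each). Its adjusted p between KO and intact was 0.565 by limma. Of the 9 markers tested, 4 were above and 5 below 0 as log2 differences, KO minus intact, with a median of -0.02. Of the intercalated cell list 1 of 5 markers reached 1 TPM, of the proximal tubule list 1 of 4, both markers of the thick ascending limb were listed at 0 in every sample, and the summed level of fibroblast, endothelial or leukocyte markers did not exceed 1.09 TPM. The part of the marker levels in the values below was not tested. A 0 in the table does not show that a gene is silent, since 5 of the 13 oxidative phosphorylation genes of the mitochondrial genome (mt-Nd4l, mt-Co2, mt-Co3, mt-Atp6 and mt-Atp8) were also listed at 0 in all samples. The table gives TPM without counts, so sequencing depth is unknown, and in bulk RNA fewer cells of a kind and less RNA per cell cannot be told apart.

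Start regions are shown for 3 of the 8 members with a shared letter pattern, chosen because each returns below with a difference between cell lines. They are Ndufa3 and Ndufc2, accessory subunits of complex I, and Uqcr10, a small subunit of complex III. Other members with that pattern, such as Cox7c and Atp5o, return below too. A link between the pattern and the level of a gene was not tested. The sequences are the 250 bases before the annotated start, from RefSeq on GRCm38.p6, written 5′ to 3′ on the gene's strand, with capitals for motifs found by an exact search of both strands. In Ndufa3 (chr7:3617123-3617372, plus strand) the capitals mark ACTACAA, the core of the ZNF143 motif. In Uqcr10 (chr11:4704345-4704594, minus strand) they mark that core on either strand and a CCAAT box on the opposite strand. In Ndufc2 (chr7:97399753-97400002, plus strand) they mark a CCAAT box and the ZNF143 core.
Ndufa3: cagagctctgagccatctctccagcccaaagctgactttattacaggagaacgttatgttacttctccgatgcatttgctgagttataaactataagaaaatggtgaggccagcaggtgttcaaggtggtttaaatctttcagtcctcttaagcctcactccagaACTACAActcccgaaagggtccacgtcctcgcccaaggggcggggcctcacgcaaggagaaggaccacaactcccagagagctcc
Uqcr10: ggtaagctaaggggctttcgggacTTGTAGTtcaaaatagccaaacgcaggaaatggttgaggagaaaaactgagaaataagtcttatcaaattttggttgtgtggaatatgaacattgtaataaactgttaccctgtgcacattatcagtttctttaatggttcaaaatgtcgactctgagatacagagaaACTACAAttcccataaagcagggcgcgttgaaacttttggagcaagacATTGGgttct
Ndufc2: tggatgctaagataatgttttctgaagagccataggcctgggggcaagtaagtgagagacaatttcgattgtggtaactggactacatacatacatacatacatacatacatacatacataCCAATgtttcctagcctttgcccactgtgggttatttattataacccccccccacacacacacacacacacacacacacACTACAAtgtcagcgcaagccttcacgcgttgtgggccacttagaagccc

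A start region could be matched for 78 of the 92 members. The ZNF143 core lay in 8 of the 78 (10.3%) and in 3.27% of all 27025 genes with a start region. The members with it were Atp5c1, Atp5d, Atp5o, Cox5b, Cox7c, Ndufa3, Ndufc2 and Uqcr10, which belong to complexes I, III, IV and V. The core of the NRF-1 motif, GCATGCGC, was found for 9 members (11.5%) against 2.56% of all genes, among them Atp5k, Cox6a1 and Sdhb. The ETS motif CCGGAAG, which NRF-2 (GABP) binds, was found for 16 members (20.5%) against 7.83%, among them Sdhd, Cox6b1 and Uqcrh. CCAAT was present for 33 members (42.3%) against 37.5%, and the YY1 motif AAGATGGC for 1 member (1.28%), Atp5j, against 1.83%. Members had to reach a mean of 1 TPM, whereas all genes with a start region were counted at any level, so these shares compare unlike sets. Each motif was counted on its own where 2 of them overlapped, a match is not a bound site, and binding was not measured.

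The members were abundant transcripts. Their median level was 309 TPM, 76 of the 92 were above 100 TPM and 7 were above 1000 TPM. Together they took 3.69% to 4.04% of all TPM in a sample. Atp5b, the catalytic beta subunit of ATP synthase, stood highest with a mean of 3920 TPM. Next came the complex IV subunits Cox6a1 (1633 TPM) and Cox4i1 (1533 TPM), and each complex except complex II had at least 1 member above 1000 TPM. Assembly factors were far less abundant: their median was 49.4 TPM, against 382 TPM for core and 393 TPM for accessory subunits. Sdhaf3 (3.48 TPM) and Cox6c2 (1.17 TPM) were lowest, and Cox6c2, a copy of Cox6c, was the member nearest to the minimum. Just below it lay Ndufa11b (0.476 TPM), Cox6a2 (0.300 TPM) and Ndufs6b (0.098 TPM).

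**Figure D1:**
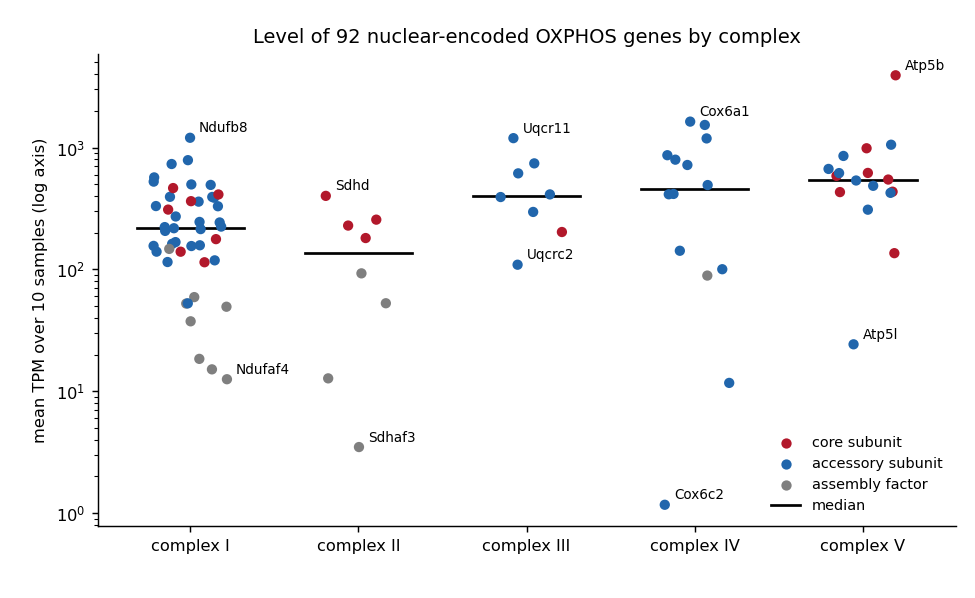
Mean TPM over the 10 samples (log axis) of the 92 members, by complex; each point is a gene, colored as core subunit, accessory subunit or assembly factor, and bars are medians. Medians run from 137 TPM in complex II, where 4 of 8 members are assembly factors, to 547 TPM in complex V, and assembly factors fill the low end of complexes I and II.

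Where a subunit exists in tissue-specific copies, one copy made up most of the listed TPM. Cox4i1 accounted for 99.999% of the Cox4 pair in intact samples, and Cox4i2, the copy known for lung and low oxygen, was listed at 0 in 8 of 10 samples. Cox6a1 accounted for 99.99% of the Cox6a pair in intact and 99.97% in KO samples, the rest being the heart and muscle copy Cox6a2. Cox8b, Cox8c and Cox7b2 were listed at 0 in all samples, as were the mitochondrial genes named above. In the Cox7a family, Cox7a2 made up 80.8% ± 1.7 in intact and 80.0% ± 3.0 in KO samples, Cox7a2l, which helps to join complexes III and IV, 16.9% ± 1.2 and 17.7% ± 2.6, and the heart and muscle copy Cox7a1 2.29% ± 0.66 and 2.27% ± 0.45 (SD, n = 5 each). Subunit c, which forms the rotating ring of ATP synthase, is encoded by 3 genes with different import sequences. Atp5g3 made up 62.9% ± 0.6 of their sum in intact and 64.1% ± 0.9 in KO samples, Atp5g1 28.3% ± 1.0 and 27.2% ± 0.9, and Atp5g2 8.87% ± 0.71 and 8.63% ± 0.40. Atp5g3 was also the steadiest member, with a coefficient of variation of 2.20% over the 10 samples. Some of these values depend on how reads were shared among near copies: in the GRCm38 annotation only 15.2% of the 50-base windows of Atp5l transcripts and 52.4% of those of Atp5o were in no other gene, and Ndufa12 had an expressed pseudogene copy at 234 TPM.

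KO and intact cells were compared first by the summed TPM of each complex, a description without a test. The complex I members summed to 12895 ± 334 TPM in intact and 12009 ± 621 TPM in KO samples (SD, n = 5 each), so the KO mean was 93.1% of the intact mean. Complex II went the other way, with 1186 ± 31 TPM in intact and 1273 ± 115 TPM in KO samples, or 107%. Complex III stood at 4047 ± 159 and 3883 ± 204 TPM (95.9%), complex IV at 8617 ± 272 and 8189 ± 322 TPM (95.03%) and complex V at 12781 ± 265 and 12490 ± 414 TPM (97.7%). The complex I sum was 12652 in the parental line, 13457 and 12846 in intact clone 1, 12633 and 12890.1 in intact clone 2, and 11896, 11021, 12396, 12094 and 12640 in KO 1 to KO 5. Of the KO samples, KO 5 alone reached the range of the intact samples, and KO 2 was lowest. All 92 members summed to 39527 ± 776 TPM in intact and 37844 ± 1026 TPM in KO samples, and the oxidative phosphorylation genes of the mitochondrial genome to 7723 ± 910 and 7774 ± 524 TPM, without the 5 listed at 0.

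Gene by gene, no member passed the test between KO and intact cells. With limma on log2(TPM + 1), which understates the change of low genes, 0 of 92 members had an adjusted p under 0.05, as against 0.005% of the 20000 genes tested, a single gene. At an unadjusted p under 0.05, 22 of 92 members were lower in KO samples, where 2.46% of all genes were, and 1 was higher, where 4.53% were. By the exact permutation test, which treats paired samples of an intact clone as separate, 22 members had an unadjusted p under 0.05. That test was run on the members alone, so no share over all genes stands beside its count. The number by limma, 23 in all, was 11 without KO 1, 13 without KO 2, 11 and 15 without the first and second sample of intact clone 1, and 14 without the first sample of intact clone 2. It was 8 with 1 value per cell line, all of them lower, where 1.69% of all genes were lower and 2.12% higher. For the fits without 1 sample, no share over all genes is given. The median difference was -0.05 over the members and 0.02 over all genes tested. Differences are on the log2 scale, KO minus intact, throughout.

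The lower values lay in the accessory subunits. Of 59 accessory subunits, 51 were below 0, with a median of -0.10, and 20 had an unadjusted p under 0.05, all of them lower. Of 20 core subunits, 16 were above 0, with a median of 0.05, and 1 had an unadjusted p under 0.05, the complex V subunit Atp5e, which is lower. Of 13 assembly factors 9 were below 0, with a median of -0.03, 1 of them lower and 1 higher at that threshold. Within complex I, 12 of 30 accessory subunits were lower at an unadjusted p under 0.05 (median -0.13) and 0 of 7 core subunits (median 0.04). Within complex V, 3 of 9 accessory and 1 of 8 core subunits were lower, and in complex IV 4 of 13. All 4 subunits of complex II, each of them a core subunit, were above 0, and none had an unadjusted p under 0.05. Class and cell line moved together: without KO 1 and KO 2, 8 accessory subunits were lower at that threshold, where 3.095% of all genes were. Their median was then -0.07, against 0.008 for all genes tested, and the core subunits had 10 above and 10 below 0.

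Groups that did not overlap were found for 3 members, all lower in KO cells, and all accessory subunits of complex I; among all genes, 0.445% did not overlap with KO lower and 1.2% with KO higher. Ndufa7, a subunit of the matrix arm, measured 826 TPM in the parental line, 934 and 839 in intact clone 1, 817 and 834 in intact clone 2, and 675, 669.7, 759, 738 and 790.2 in KO 1 to KO 5. Every KO sample was below every intact sample, KO 1 and KO 2 the most. The difference was -0.23 (SE 0.06), with an adjusted p of 0.524 by limma. For groups of 5 against 5 that do not overlap, the exact two-sided permutation p is 0.00794, the smallest it can give, so it adds nothing to the absence of overlap. That test shuffles the 5 intact samples as if they were separate, although they stand for 3 cell lines. Ndufa3, one of the smallest subunits, measured 557, 629, 579, 557 and 568 TPM in the intact samples in the same order and 410.4, 377, 547, 516 and 514 TPM in KO 1 to KO 5. The gap between the groups was narrow, and KO 1 and KO 2 stood well under the other KO clones. Its difference was -0.30 (SE 0.10, adjusted p = 0.601), and -0.13 without KO 1 and KO 2. Ndufv3, which sits beside the NADH-binding subunits, measured 234, 226, 225, 231 and 225 TPM in intact and 209, 168, 220.1, 197 and 207 TPM in KO samples. Its difference was -0.19 (SE 0.07, adjusted p = 0.607), and the lowest sample was KO 2.

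Larger differences were seen for Ndufb1, Atp5k and Cox6c2. Ndufb1, a subunit of the membrane arm whose gene the GRCm38 annotation types as a noncoding RNA from a bidirectional promoter, measured 203, 239, 229, 251.8 and 245 TPM in the intact and 143, 164, 196, 204 and 196 TPM in the KO samples. The groups overlapped by the parental line and KO 4 alone, and the difference was -0.38 (SE 0.10, adjusted p = 0.524). Atp5k, subunit e of ATP synthase, which helps dimers of the enzyme to form, measured 308, 339, 319, 378 and 397 TPM in the intact and 215, 245, 291, 287 and 314 TPM in the KO samples. KO 5 and the parental line overlapped, and the difference was -0.37 (SE 0.11, adjusted p = 0.559). Cox6c2, which that annotation types as a processed pseudogene, measured 1.91, 0, 1.68, 1.78 and 2.25 TPM in the intact and 0, 0, 0.87, 1.01 and 2.20 TPM in the KO samples. Its difference was -0.51 (SE 0.39, adjusted p = 0.819), and -0.33 without KO 1 or without KO 2 and -0.82 without the first sample of intact clone 1.

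Among complex IV subunits, Cox7c stood at 91.5 ± 9.5 TPM in KO and 109 ± 9 TPM in intact samples (difference -0.26, SE 0.08, adjusted p = 0.568). Cox6b1, on the outer face of the enzyme, stood at 752 ± 46 and 839.7 ± 23.3 TPM (difference -0.16, SE 0.05, adjusted p = 0.569). Cox5b stood at 393 ± 21 and 435 ± 27 TPM (difference -0.15) and Cox6c at 679 ± 66 and 761 ± 47 TPM (difference -0.17). In each of these 4 the KO mean was lower, and the groups overlapped. On the other side, Sdhaf4, an assembly factor of complex II, was the 1 member higher at an unadjusted p under 0.05, at 56.6 ± 6.7 TPM in KO and 48.9 ± 2.9 TPM in intact samples (difference 0.20, SE 0.08, adjusted p = 0.676). Sdhc, an anchor subunit of complex II, differed by 0.15 and Uqcrc1, a large subunit of complex III, by 0.15, with adjusted p-values of 0.759 and 0.799. Sdhc differed by 0.098 without KO 1 and Uqcrc1 by 0.046 without KO 2. Atp5b stood at 4018 ± 223 TPM in KO and 3822 ± 91 TPM in intact samples, Ndufs1, the largest core subunit of complex I, at 118 ± 9 and 111 ± 5 TPM, and Cox4i1 at 1507 ± 139 and 1559.7 ± 71.3 TPM.

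**Figure D2:**
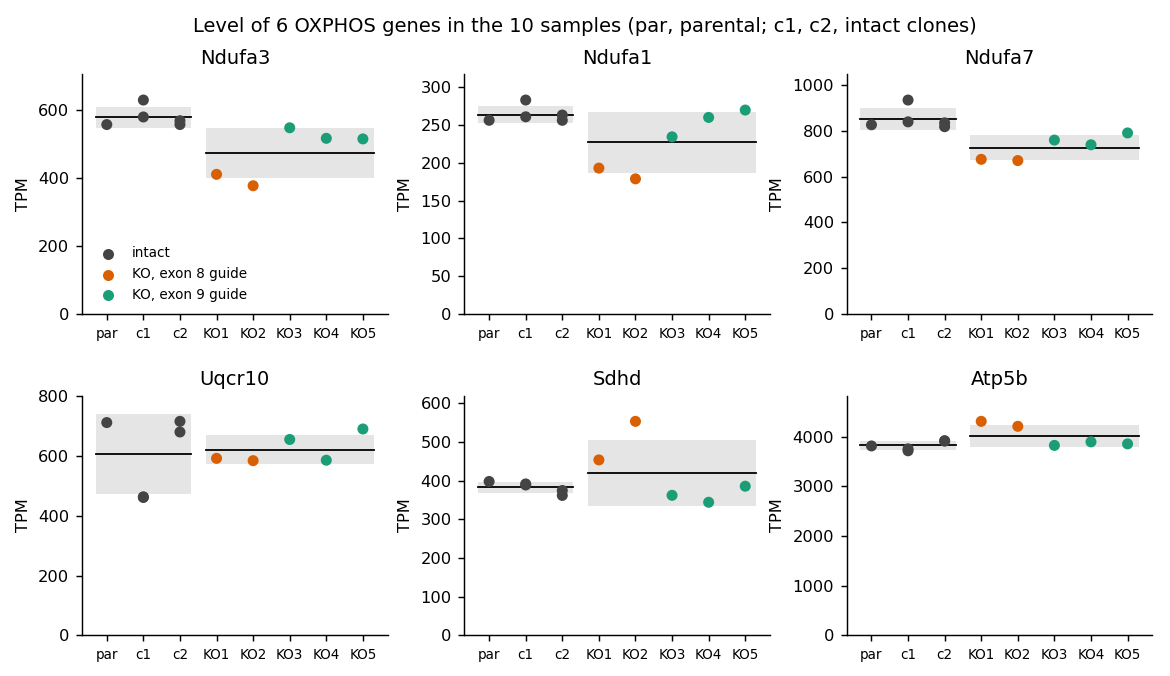
TPM in the 10 samples of 6 members, with the y axes from 0; points are samples, colored as intact, exon 8 guide KO and exon 9 guide KO, lines are group means and gray bands ± 1 SD. Ndufa3, Ndufa1 and Ndufa7 are lowest in KO 1 and KO 2, Atp5b and Sdhd are highest there, and Uqcr10 is lowest in both samples of intact clone 1.

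Viewed by cell line, KO 1 and KO 2 stood farthest from the rest. Each line was described by the log2 difference of its members from the median of the 8 cell lines. KO 1 had a median of 0.15 over the core subunits, 2 of 20 being below 0, and of -0.12 over the accessory subunits, 46 of 59 being below 0. KO 2 had 0.03 and -0.14, with 48 of 59 accessory subunits below 0. In KO 3 both medians were -0.01, in KO 4 they were -0.03 and -0.05, and in KO 5 they were 0.00 and 0.04. The intact clones lay above 0 for accessory subunits, with 0.06 in clone 1 and 0.04 in clone 2, and the parental line lay at 0.01 for both classes. Of the 8 cell lines behind that median, 5 are KO clones. Against the mean of the 3 intact lines, accessory medians were -0.20 in both KO 1 and KO 2. They were -0.04 in KO 3, -0.09 in KO 4 and -0.003 in KO 5. By that measure 45, 46, 43, 48 and 33 of 59 were below 0 in KO 1 to KO 5, and 43 in the parental line. In KO 1, 26 of 92 members were higher than in every other sample and 17 lower, and in KO 2 8 were higher and 39 lower. Of 9162 other genes with at least 10 TPM, 19.4% were highest and 16.2% lowest in KO 1, and 31.5% and 19.2% in KO 2. No more than 13 members lay outside all other samples in any other cell line. In KO 4, 1 member was higher and 12 lower, where 12.5% and 7.17% of other genes were. In the parental line, both intact clones, KO 3 and KO 5, at most 7 members were higher and at most 3 lower. There, at most 5.66% of other genes were higher and at most 7.75% lower.

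**Figure D3:**
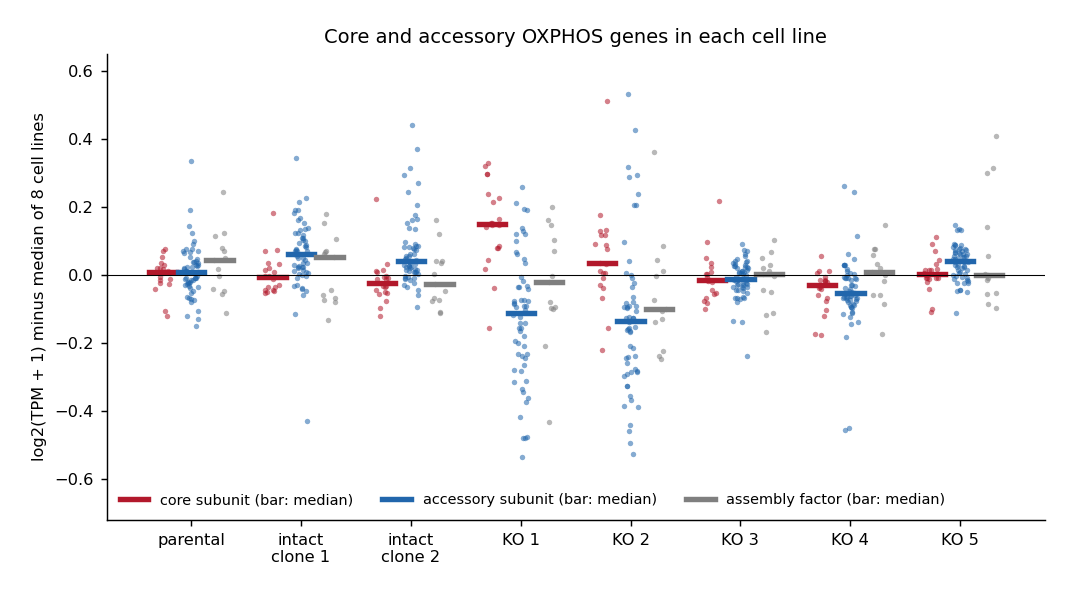
Log2(TPM + 1) of each member minus its median over the 8 cell lines, by cell line; points are genes (Cox6c2 left out for its low level) and thick bars medians of core subunits, accessory subunits and assembly factors. In KO 1 the core median is 0.15 and the accessory median -0.12, while in KO 3 both are -0.01.

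The 2 guides were then compared, exon 9 clones minus exon 8 clones, with all 10 samples in the fit. With 2 clones from one guide and 3 from the other, guide and clone cannot be told apart. At an adjusted p under 0.05, 2 members were higher in exon 9 than in exon 8 clones and none was lower, where 0.31% of all genes (62 genes) passed in either direction. Ndufa1, a small membrane-bound subunit of complex I encoded on the X chromosome, measured 193 and 179 TPM in the exon 8 clones and 234, 259.8 and 269 TPM in the exon 9 clones, with 256 to 283 TPM in the intact samples. The difference was 0.45 (SE 0.07, adjusted p = 0.0452). Ndufa3, with the values above, differed by 0.42 (SE 0.07, adjusted p = 0.0495). For both genes the exon 9 clones lay in or near the intact range and the exon 8 clones under it. Neither call held when each sample was centred by coding length, when 1 value was used per cell line, or when cell line was a random effect, where 0 members passed. Leaving out any 1 of the intact samples, KO 3, KO 4 or KO 5 also left 0 members. Without KO 1 or without KO 2 the exon 8 group is 1 clone, so counts of those fits are not used here. They are listed only with the other alternatives below, and do not measure the size of the difference between guides. The differences themselves ran from 0.38 to 0.51 for Ndufa1 and from 0.35 to 0.48 for Ndufa3 over the 23 alternatives.

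At an unadjusted p under 0.05, 26 members were higher in exon 9 clones, where 4.93% of all genes were, and 9 were lower, where 7.18% were. Accessory subunits made up 24 of the 26, and core subunits 7 of the 9. All 7 core subunits of complex I were below 0, and 24 of its 30 accessory subunits above. Ndufs5, Ndufa2, Ndufa5 and Uqcrb, all small accessory subunits, had adjusted p-values from 0.0556 to 0.0906. Sdhd, a membrane anchor of complex II, was the largest difference in the other direction, -0.46 (SE 0.09, adjusted p = 0.0792), on 454 and 553 TPM in the exon 8 and 362, 344 and 386 TPM in the exon 9 clones. Uqcrc1 differed by -0.34 (SE 0.11, adjusted p = 0.262; -0.55 without KO 1 and -0.14 without KO 2) and Uqcrc2, its partner in complex III, by -0.23 (SE 0.05, adjusted p = 0.107). Genes of the cytosolic ribosome were also higher in exon 9 clones: 60 of 87 were higher at an unadjusted p under 0.05, 10 at an adjusted p under 0.05, with a median of 0.29, against 0.15 for accessory subunits and -0.01 for all genes tested. Aqp2 differed by 1.13 in this contrast (adjusted p = 0.0513). The part of these genes in the members' values was not tested.

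Coding length went with these differences. Of the 92 members, 90 had a coding length in the GRCm38 annotation, and they were split into 3 sets of 30. The shortest, 156 to 336 bases, held 27 accessory subunits and 1 core subunit, and the longest, 525 to 2181 bases, held 13 core and 12 accessory subunits. Between KO and intact samples, 14 of the 30 shortest members were lower at an unadjusted p under 0.05 (median -0.16), 6 of the middle set (median -0.06) and 1 of the longest (median 0.03). By cell line, KO 1 had a median of -0.20 for the shortest and 0.12 for the longest, and KO 2 of -0.16 and 0.00. Other genes of the same lengths had -0.05 and 0.01 in KO 1, and -0.03 and 0.03 in KO 2. Over the 90 members, Spearman's rho between coding length and the difference from the cell line median was 0.65 in KO 1, 0.42 in KO 2, -0.67 in intact clone 2 and -0.46 in KO 5, where 8831 other genes gave 0.09, 0.08, -0.30 and -0.10. It was -0.36 in intact clone 1, 0.15 in KO 4, 0.12 in KO 3 and -0.06 in the parental line, where the other genes gave -0.15, 0.25, 0.04 and 0.07. For rho the other genes were not limited to the coding lengths of the members, so the values compare unlike ranges of length. Genes of 1 library share its preparation and are not independent replicates. When each sample was centred by coding length, 8 accessory subunits in place of 20 were lower in KO samples at an unadjusted p under 0.05, with a median of -0.06, where 3.03% of all genes were lower. Between the guides, 22 accessory subunits in place of 24 were then higher in exon 9 clones, with a median of 0.10, and 5 core subunits in place of 7 were lower, where 5.935% of all genes were higher and 6.145% lower.

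**Figure D4:**
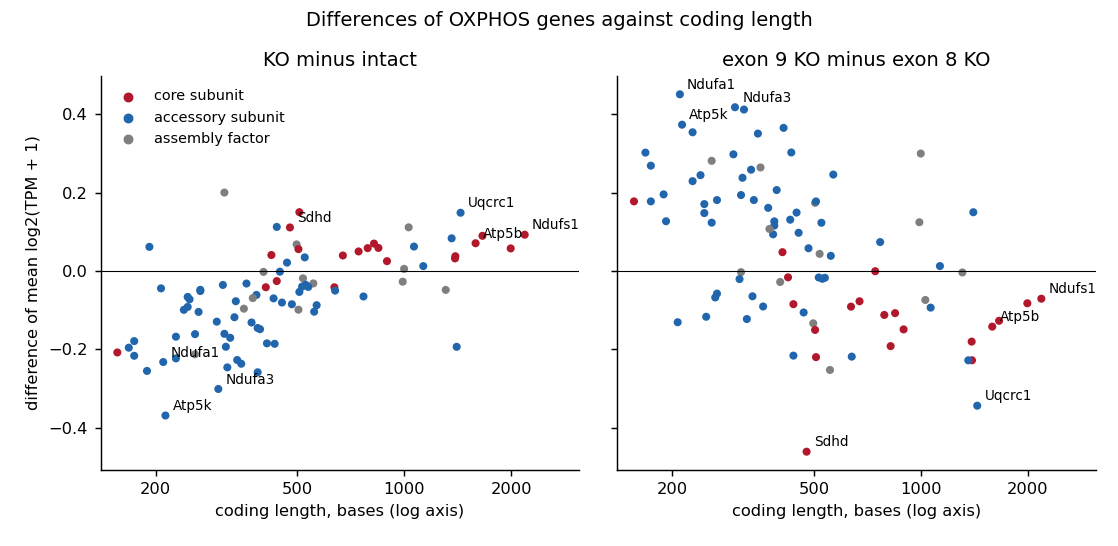
Log2 differences of the 90 members with a coding length against that length in bases (log axis), for KO minus intact and for exon 9 minus exon 8 KO clones; each point is a gene, colored by class. Short genes lie mostly below 0 in the left panel and above 0 in the right, and long genes the reverse, from Atp5k (-0.37 and 0.37) to Ndufs1.

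Members were also shifted along with the other genes around them. For each member the median difference of the other genes within 5 Mb, with at least 10 TPM, was taken in the same cell line. Pearson's r over the 92 members between the 2 values was 0.63 in KO 2, 0.64 in KO 4, 0.43 in KO 1, 0.45 in both intact clones, 0.17 in the parental line, 0.14 in KO 3 and -0.10 in KO 5. Stretches with a shifted median were then picked after their values were seen. They were whole chromosomes with a median of at least 0.2 from the cell line median, and chromosome 16 from 40 Mb in KO 4. Smaller shifted parts of other chromosomes were not taken, such as those around Uqcr10 in intact clone 1 and around Ndufab1 in KO 2.

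In KO 2, chromosome 9 had a median of 0.44 over 511 other genes, 86.1% of which were higher than in every other sample. All 6 members there were above their cell line median, and 5 were higher than in every other sample. Uqcrc1 measured 572 TPM in KO 2 and 365 to 433 TPM in the other 9 samples. Sdhd measured 553 against 344 to 454 TPM, Cox5a, one of the first nuclear subunits to join complex IV, 636 against 458 to 513 TPM, Cox7a2 495 against 364 to 461 TPM, and the complex I assembly factor Ndufaf3 74.1 against 50.9 to 66.8 TPM. Atp5l, with few windows of its own, measured 29.8 TPM and was not outside the others. When each sample was centred by chromosome segment, the difference between guides was -0.06 in place of -0.34 for Uqcrc1 and -0.26 in place of -0.46 for Sdhd.

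Chromosome 3 went the other way in KO 2, with a median of -0.32 over 458 other genes, 75.5% of which were lower than in every other sample. Its 3 members were too: Ndufb5 at 176 TPM against 218 to 242, Ndufc1 at 419 against 486 to 657, and Atp5pb, the peripheral stalk subunit b, at 357 against 413 to 453 TPM. Chromosome 5 stood at 0.33 over 613 other genes, 77.0% of which were higher than in every other sample, and 0 of its 3 members, Cox6a1, Atp5j2 and Atp5k, were. Atp5k, whose neighbors stood at 0.40, was itself at -0.29. On chromosome 7, Ndufab1, Ndufc2 and Uqcrc2 lay at 0.29, 0.21 and 0.21 beside neighbors at 0.24, 0.16 and 0.18, while Ndufa3 on the same chromosome lay at -0.49 with neighbors at 0.02.

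KO 1 had a median of -0.33 over 530 other genes of chromosome 8, 80.8% of which were lower than in every other sample. So were its 3 members: Cox4i1 at 1261 TPM against 1432 to 1598, Ndufb7 at 349.6 against 454 to 552, and Ndufa13, also known as GRIM-19, at 120.2 against 151 to 187 TPM. Chromosome 19 stood at 0.21 over 343 other genes, 63.0% of which were higher than in every other sample, as were 5 of its 6 members. Among them were the core subunits of complex I Ndufs8, at 502 against 351 to 449 TPM, and Ndufv1, which binds NADH, at 442 against 335 to 369 TPM, together with Cox8a at 1427 against 1051 to 1246 TPM. In KO 4, chromosome 16 from 40 Mb onward stood at -0.29 over 111 other genes, 72.1% of which were lower than in every other sample. Both members there, Atp5j and Atp5o, which belong to the stalk of ATP synthase, were lower than in all other samples, at 779 against 1009 to 1142 TPM and at 499 against 647 to 731 TPM.

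These stretches held 9 members in KO 1, 12 in KO 2 and 2 in KO 4. Outside them, KO 1 had 21 of 83 members above (25.3%) and 14 below (16.9%) all other samples, where 18.8% and 12.7% of other genes were. KO 2 had 3 of 80 members above (3.75%) and 36 below (45.0%), where 26.03% and 18.4% of other genes were. Smaller shifted parts are still counted here: Ndufab1 and Ndufc2, among those 3, lie beside the raised neighbors on chromosome 7. When each sample was centred by chromosome segment, 28 accessory subunits were lower in KO than in intact samples at an unadjusted p under 0.05, where 3.955% of all genes were, and the core subunits had a median of 0.01.

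**Figure D5:**
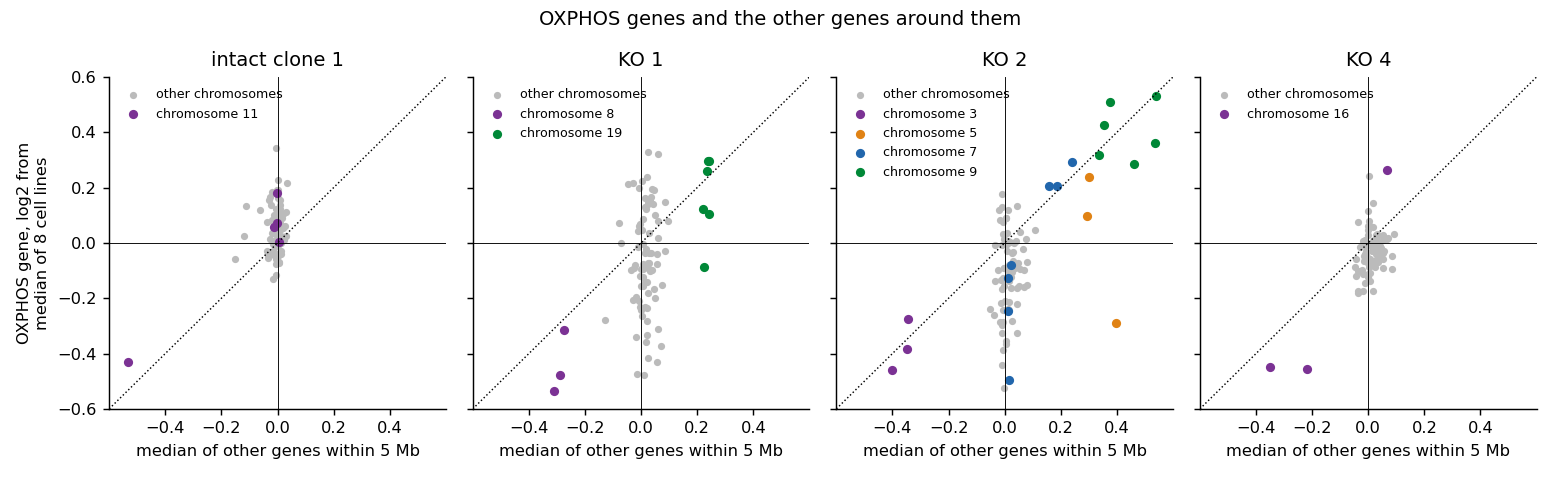
Log2 difference of each member from its median over the 8 cell lines against the median of other genes within 5 Mb, in intact clone 1, KO 1, KO 2 and KO 4; points are genes with at least 5 such neighbors, colored where they lie on a chromosome named in the text, and the dotted line marks equal values. Colored points of chromosomes 3, 8 and 9, Uqcr10 on chromosome 11 and Atp5j and Atp5o on chromosome 16 lie on the side of their neighbors, while Atp5k on chromosome 5 (-0.29), Ndufa3 on chromosome 7 (-0.49) and Ndufb4 on chromosome 16 (0.26) lie away from theirs (0.40, 0.02 and 0.07).

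The 2 intact clones were compared with each other, clone 2 minus clone 1, to describe how far intact lines differ. By limma, 0 of 92 members had an adjusted p under 0.05, as had 0% of all genes. At an unadjusted p under 0.05, 8 members were higher, where 7.86% of genes were, and 8 lower, where 9.07% were. The test has 2 samples on each side, and its spread is that between the samples of a clone. Uqcr10, whose start region is shown above, had the largest difference among members above 100 TPM. It measured 464 and 461 TPM in intact clone 1, 681 and 716 TPM in intact clone 2, 712 TPM in the parental line, and 592, 585, 655, 586 and 691 TPM in KO 1 to KO 5. Both samples of intact clone 1 were under all others, and the difference between the clones was 0.59 (SE 0.04, adjusted p = 0.0893). Of 57 other genes within 5 Mb of Uqcr10 on chromosome 11, 55 were below their cell line median in intact clone 1, with a median of -0.53, and the difference for Uqcr10 was 0.11 when each sample was centred by chromosome segment. Cox6a1 differed by 0.26 (1843 ± 56 against 1534 ± 17 TPM, SD, n = 2 each, adjusted p = 0.146), and Ndufb10 by -0.11 (350.5 ± 0.8 against 379 ± 2 TPM, adjusted p = 0.156). The genes of the mitochondrial genome were higher in clone 2 at an unadjusted p under 0.05 for 7 of the 8 tested, with a median of 0.28. Among the 8, mt-Nd3 was near the floor, at 0 to 0.35 TPM in the intact samples.

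Other genes of the pathway were taken from fixed lists and compared between KO and intact samples. None passed an adjusted p of 0.05 by limma. At an unadjusted p under 0.05, where 2.46% of all genes were lower and 4.53% higher, 1 of 8 tested oxidative phosphorylation genes of the mitochondrial genome was lower, mt-Nd6. Of 36 other assembly factors, 3 were lower and 1 higher, with a median of -0.03. Cox17, a copper chaperone of complex IV, stood at 351 ± 40 TPM in KO and 431 ± 29 TPM in intact samples, Pet100 at 83.3 ± 20.8 and 120 ± 19 TPM, and Cox20 at 78.4 ± 10.4 and 90.8 ± 6.5 TPM, while Oxa1l, the insertase of the inner membrane, stood at 53.5 ± 1.1 and 49.8 ± 2.3 TPM. Of 9 carriers and electron donors 1 was higher, the phosphate carrier Slc25a3, at 526 ± 35 against 464 ± 17 TPM. Of 14 regulators of mitochondrial biogenesis all were above 0, with a median of 0.07, and 3 were higher at that threshold: Pprc1, Polg, the mitochondrial DNA polymerase, and Twnk, its helicase. Ppargc1a had the largest difference of the 14, 1.28 (adjusted p = 0.755 by limma). It stood at 17.7 ± 14.3 TPM in KO and 7.07 ± 6.48 TPM in intact samples, and the groups overlapped. Of 13 genes of the tricarboxylic acid cycle 11 were above 0, with a median of 0.09, and Cs, Ogdh and Sucla2 were higher. Cytosolic ribosomal protein genes were lower for 11 of 87, with a median of -0.13, and mitochondrial ribosomal protein genes were lower for 4 and higher for 2 of 78, with a median of -0.02.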

How the data were processed

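RNA was measured in 10 samples of mpkCCD cells (amplified full-length cDNA, paired 50-base reads). The authors aligned reads with STAR to the Ensembl mouse reference, quantified them with RSEM and deposited TPM per gene, 1 column per sample; 0 columns were left unused. TPM was not converted to counts, so depth, intervals and detection limits are unknown, and a 0 is given as listed at 0.

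Tests ran on log2(TPM + 1), that is with a pseudocount of 1, for the 20000 most abundant genes by mean TPM. They used limma 3.58.1 in R 4.3.3 (lmFit, eBayes with trend), and p-values were adjusted by Benjamini-Hochberg over those genes, with a threshold of 0.05. The fits took 5 KO against 5 intact samples, then 3 groups over 10 samples for the guides, and 2 against 2 samples for the intact clones. Members were also tested between KO and intact by the exact two-sided permutation test over 252 arrangements. The procedure was tested on simulated data in which samples were drawn independently, without the pairing of samples within an intact clone. No test was run over the members as a list.

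Groups came from the labels, except the guides, which come from the study's mutation table. Paired samples of intact clones had the same value for 1.37% and 1.46% of 13047 genes, and each counted as a sample. Complex, class and list memberships were set by hand, and members and lists were chosen with earlier results of these data known. Genes are named by a rule: a fixed list of subunits, members past an adjusted p of 0.05, the 3 with the largest difference in each direction, those without overlap, the 5 with the largest range over cell lines, and the 3 on each side of 1 TPM; others were chosen after their values were seen. Positions, coding lengths and shared 50-base windows come from GRCm38 annotation, not the build of the table. Start regions come from RefSeq for GRCm38.p6.

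Alternatives changed the pseudocount, filter, scaling, variance moderation, the use of paired samples and the samples included. Centring by 20-Mb chromosome segment or in 20 bins of coding length, leaving out KO 1 and KO 2 together, and a log2 ratio of mean TPM were chosen after seeing the data. Python 3.11.15 with scipy 1.17.1, numpy 2.4.6 and pandas 2.3.3 served for the rest, and matplotlib 3.10.9 for plots.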

Additional observations from a re-analysis of the deposited data

Results flagged for a closer look

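Of 104 groups of 5 samples tested (named members and related genes, intact and KO separately), 10 had a sample far from the other 4, where chance gives about 1 in 20. The gap to the nearest sample was in each more than 0.71 of the whole range. Low values were Cox4i1 in the parental line (1432 TPM) and in KO 1 (1261 TPM), Atp5g1 in intact clone 2, sample 1 (403 TPM), Sdhaf3 in the parental line (3.18 TPM) and Cox6c2 in intact clone 1, sample 1 (listed at 0). High values were Ndufab1 in KO 2 (195 TPM), Atp5g1 in KO 5 (457 TPM), Atp5g3 in intact clone 2, sample 2 (1009 TPM), and Ndufa7 (934 TPM) and Ndufa1 (283 TPM) in intact clone 1, sample 1. Cox4i1 in KO 1 and Ndufab1 in KO 2 lay on chromosomes whose other genes near them were shifted the same way, by -0.27 and 0.24.

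The KO clones of the 2 guides differed from each other, by the test of that difference, for Ndufa1 (0.45) and Ndufa3 (0.42), as log2 differences, exon 9 minus exon 8. Over 23 alternatives, the adjusted p by limma reached 0.128 for Ndufa1 and 0.167 for Ndufa3. It was under 0.05 in 9 of them for Ndufa1 and in 10 for Ndufa3. Those include the fit without KO 1, where the exon 8 group is 1 clone. That fit gave the lowest value for both genes, which is not given for that reason. Guide and clone cannot be told apart.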

How the results depend on the processing

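Between KO and intact samples, 0 members passed an adjusted p of 0.05 under any alternative that was run. The number of all genes that passed was 2 in place of 1 with a pseudocount of 0.1, and 1 to 2 when each sample was left out in turn. Members at an unadjusted p under 0.05 numbered 23, but 8 with 1 value per cell line, 12 with cell line as a random effect, 10 when centred by coding length, 8 without KO 1 and KO 2, and 11 to 25 when each sample was left out. Of all genes, 1.69% were lower and 2.12% higher with 1 value per cell line. The shares were 3.03% and 2.96% when centred by coding length, and 3.095% and 5.39% without KO 1 and KO 2. No share is given for cell line as a random effect or for the fits without 1 sample. Members named with a KO minus intact difference kept its sign under all 25 alternatives.

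Between the guides, the 2 calls became 0 with all genes above 0, without the intensity trend, with 1 value per cell line, with cell line as a random effect, and centred by coding length, and ran from 0 to 18 when each sample was left out: 18 without KO 1, 8 without KO 2 and 0 without each of the other 8. Calls over all genes, 62, became 6 with 1 value per cell line and 36 with cell line as a random effect, and ran from 21 to 1730 when each sample was left out (1730 without KO 1, 634 without KO 2). In the fits without KO 1 or without KO 2 the exon 8 group is 1 clone. Their higher counts are therefore no measure of a stronger difference between guides. Ndufaf3 was the 1 difference that changed sign, to 0.035 when centred by chromosome segment. The difference of Ndufa1 was 0.40 without KO 2. Both Ndufa1 (0.38) and Ndufa3 (0.35) lost their calls when centred by coding length.

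Between intact clones, 1 member, Uqcr10, passed with genes of at least 1 mean TPM and with robust moderation. All genes past the threshold, 0, became 247 with that filter, 181 with robust moderation, 90 when centred by chromosome segment and 11 without the trend. Members at an unadjusted p under 0.05, 16, became 8 when centred by chromosome segment and 9 without the trend. The cause of these changes was not tested. No share over all genes is given beside the 8 and the 9. The mean summed TPM moved by less than 1 SD over samples under all its alternatives except for complex II without assembly factors (1067 in place of 1229 TPM).

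No paired analysis was possible because the labels give KO and intact samples no shared replicate number. The precision is limited by 3 intact cell lines, by 1 sample per KO clone and by TPM without counts.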
